A study of Rattus norvegicus with 44 samples.

Results

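Dasatinib plus quercetin (D+Q) was compared with vehicle in the dentate gyrus (DG) of older rats, using the 11 rats listed as treated with D+Q (ADQ) and the 12 listed as older vehicle rats (AV), 23 of the 44 rats sequenced. All were male F344 rats, an inbred strain, and each gave 1 library of poly(A) RNA from the DG of a single hemisphere. Treatment began at 12 months of age, the age the deposited labels give, and ended at about 18 months. The ADQ rats received dasatinib at 1.2 mg/kg together with quercetin at 12 mg/kg, and the AV rats received the carrier alone, a mixture of Phosal 50 PG, PEG400 and ethanol. Both were given by gavage on 5 days in a row, in 8 cycles separated by 2 weeks, followed by behavioral testing and 1 more round, with tissue taken 2 weeks later. The 11 older rats given ABT-263 at 12 mg/kg (AA) and the 10 rats of 6 months (YNG) shared the fit and are named only beside ADQ results. The YNG rats are listed as young vehicle rats. Whole DG was sequenced, so fewer cells of a type and less RNA per cell cannot be told apart.

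The DG receives the main cortical input of the hippocampus, and its granule cells are among the few neurons that are still born in the adult rodent brain. Senescent cells are cells that have left the cell cycle for good and secrete cytokines, proteases and growth factors. Dasatinib is an inhibitor of SRC and ABL kinases that also binds KIT, PDGF and ephrin receptors, and quercetin is a plant flavonoid with effects on PI3K and on BCL2 family members. The pair is used as a senolytic, a treatment meant to remove senescent cells by blocking the survival pathways these cells depend on. The comparison asks which transcripts differed 2 weeks after the last of many intermittent doses.

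The totals of normalized values lay between 14297964 and 18998183 per rat, and the estimated reads between 12122151 and 22311222. Summed granule cell markers (7 genes) were at 6678 to 14951 in AV and 11037 to 14029 in ADQ, and none of these genes was called. Markers of CA1 pyramidal cells, a neighboring region, ranged from 2127 to 28907 in AV and from 2515 to 11878 in ADQ. The rat numbers fall into a lower run (series a, 6 AV and 5 ADQ) and a higher run (series b, 6 and 6). In series b every AV number is higher than every ADQ number, so group and number cannot be told apart there.

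Of the 12 AV rats 4 (3989, 3999, 4009 and 4568) stood apart. Prf1, the perforin with which cytotoxic lymphocytes pierce a target cell, was at 228 in AV 3989, 199 in AV 3999, 461 in AV 4009 and 267 in AV 4568, against at most 13.9 in the other 8 AV rats, 7.92 in ADQ, 4.16 in AA and 3.24 in YNG. Summed markers of T and NK cells were at 265 to 765 in these 4 rats, 1.07 to 235 in the other AV rats and 5.58 to 102 in ADQ. This sum includes Prf1, the gene by which the 4 rats were picked, so their high sums were partly set in advance. In AV 3999 the sum was 265, of which Prf1 was 199. Of 9 T and NK cell markers 4 were abundant enough to test, 3 of them only through the 4 rats. Endothelial markers were at 4357 to 8373 in the 4 rats, above all ADQ rats (at most 2781). The 4 rats were picked by a measured value, Prf1 above 100, so every result given without them is a description chosen after seeing the data. Their part in each result is shown by the values with and without them, and what set these rats apart was not tested.

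**Figure D1:**
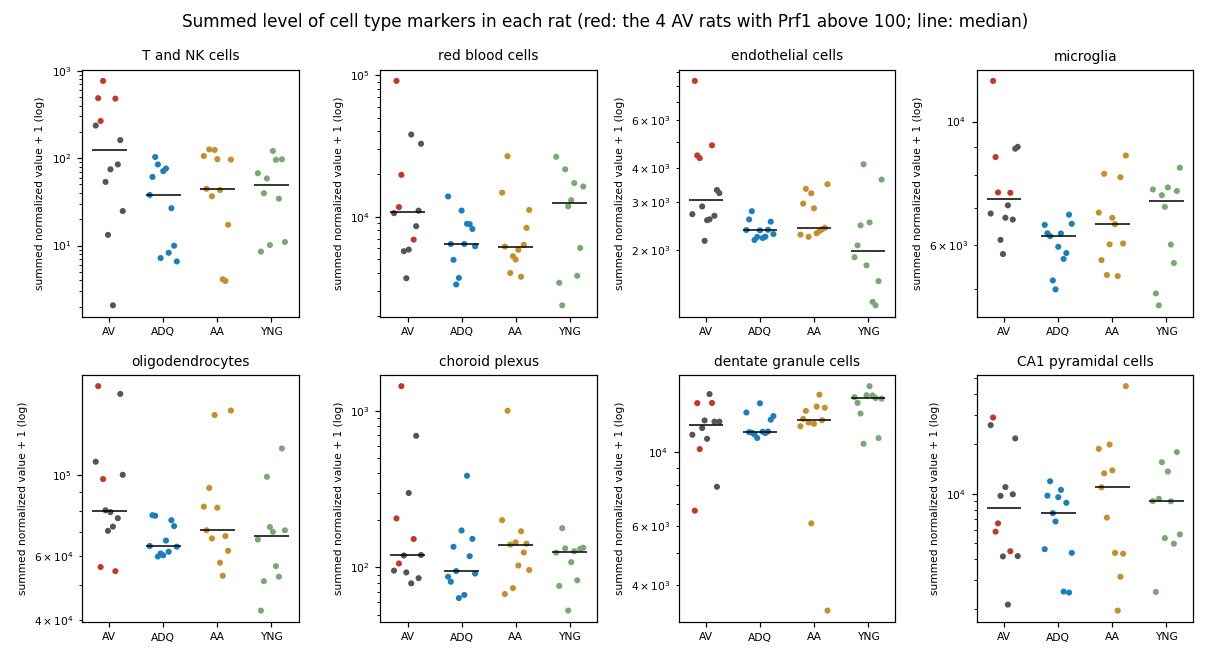
Summed normalized value + 1 (log axis) of marker genes of 8 cell types, 1 point per rat in AV (12), ADQ (11), AA (11) and YNG (10), with the group median as a line and the 4 AV rats named above in red. In the T and NK cell panel the 4 rats sit between 265 and 765, above every ADQ rat, in a sum that includes Prf1, the gene that picked them. In the red blood cell panel 1 AV rat, 3989, reaches 91042.

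Of 15598 genes tested, 1454 (9.32%) passed the study's threshold, an unadjusted limma p of 0.05, where chance alone gives about 780. Such genes are termed called below. Of them 533 (3.42% of the genes tested) were higher in ADQ and 921 (5.9%) lower, so that 63.3% of the calls were lower. With scaling by the library total the split was 651 higher and 710 lower (52.2% lower). No gene passed an adjusted p of 0.05 in limma, the smallest adjusted p being 0.134, although 25 did with array weights and 17 without AV 4011, and the called genes chosen by the naming rule had adjusted p of 0.134 to 0.532. At an unadjusted p under 0.001, 79 genes remained, of which 77 were lower and 2 higher, and these 79 are also the genes with an adjusted p under 0.2. Over all genes tested the median log2 difference was 0.0081. The shares of 5.9% lower and 3.42% higher are the background of each list below. Without the 4 AV rats they were 2.6% and 2.24%. Differences below are log2, ADQ minus AV, with limma's unadjusted p unless another p is named, and a second value in brackets is the difference without the 4 AV rats. Groups of 11 and 12 rats overlapped for every gene: none separated ADQ from AV completely.

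The lower calls rested in part on the 4 AV rats. 1 of these 4 rats held the highest value of the 23 in 728 of the 921 lower genes (79.0%), against 31.9% of all genes tested, and AV 3989 alone held it in 522 (56.7%, against 19.5%). AV 3999 held it in 69, AV 4009 in 91 and AV 4568 in 46. Genes called lower were picked for high values in AV, so a share above that of all genes was partly set in advance. Without the 4 rats 755 genes (4.84%) were called, 349 higher (2.24%) and 406 lower (2.6%). Of the original calls 540 were still called in the same direction, 307 of 921 lower and 233 of 533 higher. Of the 79 genes with p under 0.001, 68 still passed 0.05. Red blood cell markers also moved with the groups, all 5 being lower in ADQ, with sums of 3681 to 91042 in AV and 3327 to 13921 in ADQ. With their level as a covariate, a fit also chosen after seeing the data, 688 genes (4.41%) were called, 290 higher (1.86%) and 398 lower (2.55%), and 79 of the 79 with p under 0.001 still passed 0.05. Without AV 3989 alone, 1075 genes were called.

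**Figure D2:**
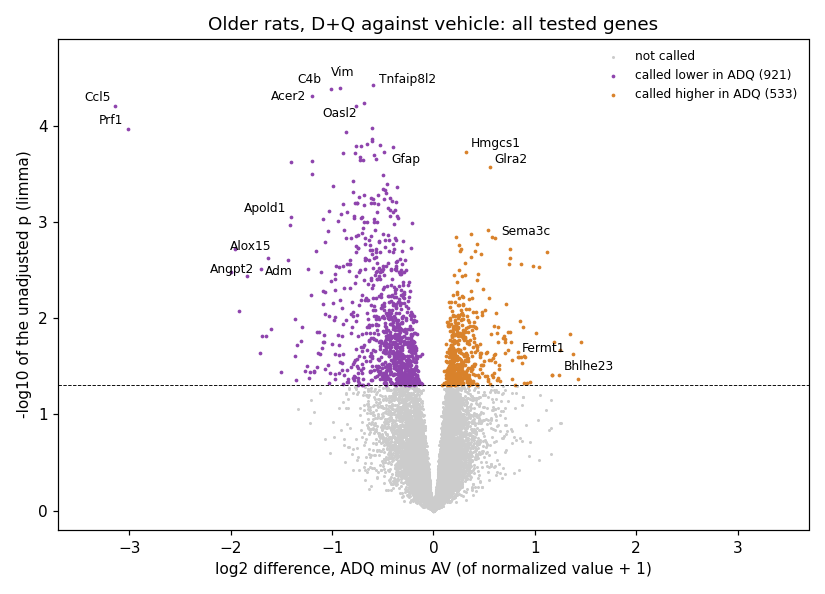
Log2 difference (ADQ minus AV) of each of the 15598 genes tested against −log10 of its unadjusted limma p, with a dashed line at p of 0.05. The 921 genes called lower extend to log2 -3.14 (Ccl5) and the 533 called higher crowd nearer 0, with Hmgcs1 (0.32) and Glra2 (0.56) at the smallest p among them.

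Several genes of cytotoxic lymphocytes were lower in ADQ, and several could be tested only through the 4 AV rats. Of 32 listed genes 16 passed the filter on low values, 8 of them only through these 4 rats, and all 8 of those were called lower, so no share of the list is given. Without the 4 rats 2 of the 16 were called lower, Ccl5 and Prf1. Ccl5, Prf1 and Tbx21 were all among the 8 that passed the filter only through these rats. Prf1 was also the gene by which the rats were picked. The p-values of these 3 genes, with or without the 4 rats, are therefore descriptions only. Ccl5, a chemokine that draws T cells and monocytes, was at 1.02 to 529 in AV (median 4.38) and 0 to 5.58 in ADQ (median 0.807), log2 -3.14 ± 0.71 (SE, p = 6.22e-05). 6 of 12 AV rats were above every ADQ rat, and 7 of 11 ADQ rats were below every AV rat. The lowest AV value, 1.02 in AV 4011, equals 1 read in that library. Those 7 ADQ rats were listed at 0 or at the value of 1 read in their own libraries. Their place below AV 4011 therefore rests on at most 1 read and on scaling. Without the 4 rats the difference was log2 -1.15 (p = 0.00998). Prf1 was at 1.07 to 461 in AV (median 3.96) and 0 to 7.92 in ADQ (median 0.807), log2 -3.02 ± 0.71 (SE, p = 0.000107), or log2 -1.01 (p = 0.0252) without the 4 rats. Tbx21, the T-box factor that drives the cytotoxic program, differed by log2 -1.99 (p = 0.00334), and by -0.28 (p = 0.488) without them. These are low values outside the 4 rats, where log2(value + 1) understates a change, and a value listed at 0 does not show that the transcript was absent.

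Other cytotoxic genes, named here after their values were seen, followed the same rats unevenly. Nkg7, a granule membrane protein, was at 33.3 to 214 in the 4 rats and at most 3.13 in ADQ (log2 -1.92, p = 0.00834, and 0.077, p = 0.844 without them). Cd8a, the co-receptor of cytotoxic T cells, gave log2 -1.60 (p = 0.0131), and 0.053 (p = 0.89) without them. Like Ccl5, Prf1 and Tbx21, Nkg7 and Cd8a passed the filter on low values only through the 4 rats. Their p-values, with or without these rats, are descriptions only. Gzmb, a granzyme, was below the limit for testing and lay at 15.1 to 51.2 in the 4 rats, and it was listed at 0 or nearly 0 in the other 8 AV rats. Cd3e, a chain of the T cell receptor complex, did not follow them: it was at 0 to 233 in AV (median 38.6) and 0 to 101 in ADQ (median 28.1) (log2 -0.31, p = 0.724).

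**Figure D3:**
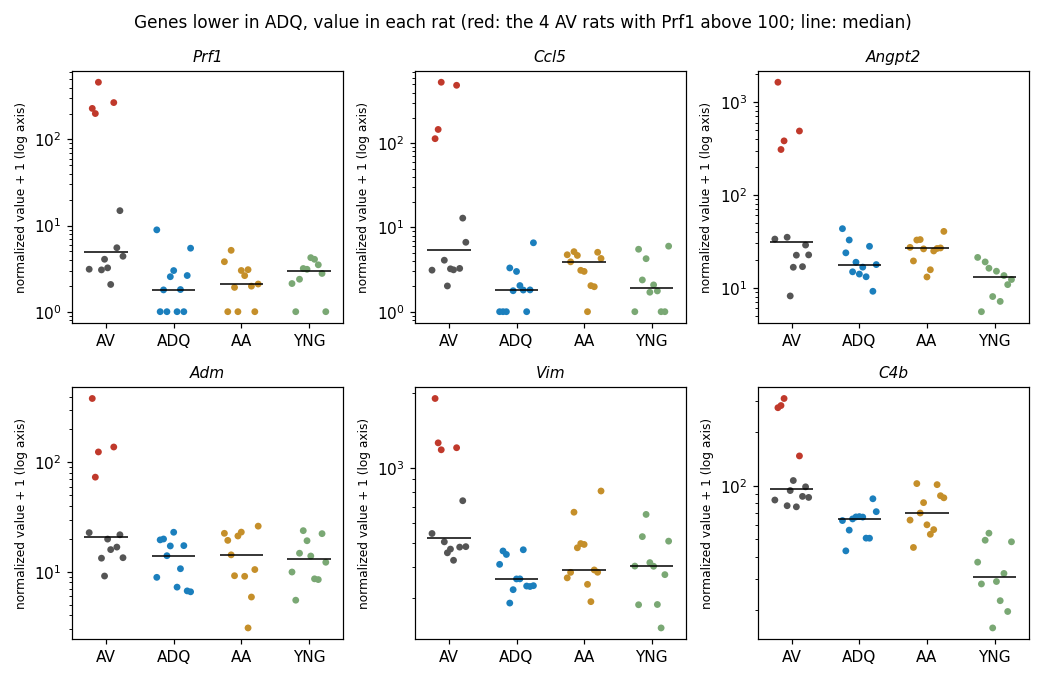
Normalized value + 1 (log axis) of 6 genes lower in ADQ, 1 point per rat, with the group median as a line and the 4 AV rats in red. For Prf1 the 4 rats lie at 199 to 461 and all 11 ADQ rats at 7.92 or less, while for Vim (286 to 468 in ADQ) the other AV rats (425 to 737) also lie toward the upper end of ADQ or above it.

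Interferon response genes and genes of MHC class I, the pathway that displays peptides from inside a cell to cytotoxic T cells, were lower together. Promoters of members called lower in ADQ are shown because both lists are textbook targets of shared sequence elements: the ISRE (searched as GAAA, any 2 bases and GAAA), bound by IRF factors, and the NF-kappaB element (searched as GGG, any 2 bases and TTTCC). The T-box element (GGTGTGA) was searched for Tbx21. Both strands were searched in the 250 bases before each RefSeq start (build GRCr8), and capitals mark a match. Prf1 (chr20:29788790-29789039, + strand) and Gzmk, a granzyme named after its value was seen (log2 -1.69, p = 0.0154, at chr2:46582016-46582265, - strand), are examples from the cytotoxic list, and Ccl5 is named only. The p-value of Gzmk is a description only. Oasl2 (chr12:47383186-47383435, - strand), Ifitm3 (chr1:205541759-205542008, - strand), Irf7 (chr1:205800024-205800273, - strand) and Gbp2 (chr2:234005477-234005726, + strand) are examples from the interferon list, Tap1 (chr20:4668544-4668793, - strand) and B2m (chr3:129549080-129549329, + strand) from MHC class I.
Prf1: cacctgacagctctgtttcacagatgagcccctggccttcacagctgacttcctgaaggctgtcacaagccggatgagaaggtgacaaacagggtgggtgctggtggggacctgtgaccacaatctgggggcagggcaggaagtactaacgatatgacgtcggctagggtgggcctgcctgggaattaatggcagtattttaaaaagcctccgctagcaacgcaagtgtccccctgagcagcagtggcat
Gzmk: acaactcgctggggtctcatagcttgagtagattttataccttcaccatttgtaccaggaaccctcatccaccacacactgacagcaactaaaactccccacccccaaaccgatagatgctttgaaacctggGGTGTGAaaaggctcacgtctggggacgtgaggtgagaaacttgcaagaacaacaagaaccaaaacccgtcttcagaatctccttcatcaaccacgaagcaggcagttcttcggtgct
Oasl2: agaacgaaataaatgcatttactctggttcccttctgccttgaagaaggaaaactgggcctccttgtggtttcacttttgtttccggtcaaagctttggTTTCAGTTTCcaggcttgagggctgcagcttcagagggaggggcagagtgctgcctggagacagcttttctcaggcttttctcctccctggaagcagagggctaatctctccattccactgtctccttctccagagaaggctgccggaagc
Ifitm3: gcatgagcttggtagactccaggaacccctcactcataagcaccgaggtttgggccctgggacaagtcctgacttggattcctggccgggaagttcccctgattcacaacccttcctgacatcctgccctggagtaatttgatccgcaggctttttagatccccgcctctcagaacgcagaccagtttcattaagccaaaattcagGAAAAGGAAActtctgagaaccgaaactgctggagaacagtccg
Irf7: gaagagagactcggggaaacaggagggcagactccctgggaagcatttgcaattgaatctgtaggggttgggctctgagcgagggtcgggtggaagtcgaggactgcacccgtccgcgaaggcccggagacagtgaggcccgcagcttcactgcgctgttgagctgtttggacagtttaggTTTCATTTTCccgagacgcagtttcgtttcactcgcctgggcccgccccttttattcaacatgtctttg
Gbp2: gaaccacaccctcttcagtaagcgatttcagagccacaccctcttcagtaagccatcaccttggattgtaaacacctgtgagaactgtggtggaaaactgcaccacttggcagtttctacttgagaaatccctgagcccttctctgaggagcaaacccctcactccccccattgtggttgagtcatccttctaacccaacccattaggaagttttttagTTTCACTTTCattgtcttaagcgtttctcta
Tap1: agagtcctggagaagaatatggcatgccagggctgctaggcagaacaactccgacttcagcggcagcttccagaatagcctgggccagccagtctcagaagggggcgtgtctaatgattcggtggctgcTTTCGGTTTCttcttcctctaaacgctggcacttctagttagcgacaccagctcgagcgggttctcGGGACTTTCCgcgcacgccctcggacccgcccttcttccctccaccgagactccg
B2m: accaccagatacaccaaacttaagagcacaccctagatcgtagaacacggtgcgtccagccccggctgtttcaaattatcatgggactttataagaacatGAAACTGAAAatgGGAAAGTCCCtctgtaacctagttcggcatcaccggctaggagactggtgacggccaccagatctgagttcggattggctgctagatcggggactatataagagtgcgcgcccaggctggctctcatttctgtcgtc

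The ISRE letters were present in 22 of 40 interferon list members with a promoter (55.0%), against 3.41% of all 33469 promoters. Among interferon members called lower 15 of 21 held them (71.4%), and among those not called 7 of 19 (36.8%). In the MHC class I list 8 of 21 members held them (38.1%), 4 of 12 called lower and 4 of 9 not called. None of 12 cytotoxic and none of 24 endothelial members did. The NF-kappaB letters were in 3 of 40 interferon and 3 of 21 MHC class I members, against 1.3% of all promoters, and the T-box letters in 2 of 12 cytotoxic members, against 3.22%. Among MHC class I members called lower 2 of 12 held the NF-kappaB letters. Tap1 and B2m, shown above, hold both elements and are not typical of their list. All 4 interferon promoters shown hold the ISRE letters, which is also more than the list as a whole. The ISRE and NF-kappaB matches do not overlap in the promoters shown. A match describes these letters and is not a binding site, and no match says nothing of a factor.

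Of 51 interferon response genes tested, 27 (52.9%) were lower in ADQ and none higher (median log2 -0.34). Without the 4 AV rats 5 were lower (median -0.16). With the red blood cell covariate 14 were, in series a alone 15 (background 3.85%), and in series b alone 14 (background 4.75%). Oasl2, a sensor-related gene of the oligoadenylate synthetase family, was at 56.8 to 179 in AV (median 104) and 41.7 to 98.3 in ADQ (median 64.7), log2 -0.69 ± 0.16 (SE, p = 5.84e-05). 7 of 12 AV rats were above every ADQ rat, and without the 4 rats the difference was -0.47 (p = 0.00482). Lgals3bp, a secreted glycoprotein, differed by log2 -0.36 (p = 0.000438, and -0.17, p = 0.0394 without them). Ifitm3, which restricts virus entry, differed by -0.72 (p = 0.000903, and -0.31, p = 0.0777). Irf7, the factor that amplifies type I interferon and named after its value was seen, was still called without the 4 rats (-0.56, p = 0.00396, and -0.50, p = 0.01). Gbp2, a guanylate-binding protein named in the same way, was not (-0.97, p = 0.00391, and -0.20, p = 0.398). Cxcl10, an interferon-induced chemokine also named after its value was seen, gave log2 -0.45 (p = 0.379) and was not called.

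Of 25 MHC class I and antigen processing genes, 14 (56%) were lower and none higher (median log2 -0.29), or 4 (median -0.16) without the 4 AV rats. RT1-CE5, a rat class I heavy chain, was at 105 to 296 in AV (median 147) and 69.1 to 189 in ADQ (median 90.7), log2 -0.66 ± 0.16 (SE, p = 0.000154), and 8 of 11 ADQ rats lay below every AV rat. RT1 genes are close copies of one another, so the division of reads among them is uncertain. Psmb9, a subunit of the immunoproteasome, differed by log2 -0.77 (p = 0.000195, and -0.51, p = 0.0118 without the 4 rats). Nlrc5, the transactivator of class I genes, differed by -0.995 (p = 0.000425, and -0.55, p = 0.0341). Tap1, a subunit of the peptide transporter into the endoplasmic reticulum, and B2m, the class I light chain, both named after their values were seen, were at log2 -0.56 (p = 0.000993) and -0.29 (p = 0.0252). Without the 4 rats they were at -0.23 (p = 0.0946) and -0.040 (p = 0.679).

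MHC class II, by which phagocytes display ingested peptides to helper T cells, had 5 of 9 genes lower (median log2 -1.03) and none without the 4 AV rats (median -0.33). Cd74, the invariant chain that escorts class II molecules, was at 83.3 to 4005 in AV (median 248) and 91.7 to 237 in ADQ (median 128), log2 -1.09 ± 0.44 (SE, p = 0.0177), and gave -0.41 (p = 0.297) without the 4 rats. RT1-Da and RT1-Db1, the class II chains, differed by -1.04 (p = 0.0306) and -1.25 (p = 0.0313). These calls depended on single rats. Cd74 was no longer called without AV 3999 (p = 0.0568), RT1-Da without AV 3989 or 3999 or ADQ 4006 (p = 0.0506 to 0.0965), and RT1-Db1 without AV 3989 or 3999 or ADQ 4005 or 4031 (p = 0.0561 to 0.0927).

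Microglia are the resident phagocytes of the brain, and complement proteins tag debris and synapses for them. Of 30 homeostatic microglia genes 14 were lower, of 32 activated or phagocytic ones 10 were lower and 1 higher, and of 21 oxidase and superoxide genes 9 were lower and 1 higher. The shares called were 46.7%, 34.4% and 47.6%, against 9.32% of all genes. The medians were -0.25, -0.24 and -0.17. Without the 4 AV rats 5, 6 and 5 were lower. Summed microglia markers were at 5773 to 11834 in AV and 4986 to 6796 in ADQ, with 6 of 9 lower, and their part in these counts was not tested. Csf1r, the receptor on which microglia depend for survival, was at 1708 to 3438 in AV (median 2126) and 1484 to 2313 in ADQ (median 1743), log2 -0.37 ± 0.12 (SE, p = 0.00264), and -0.33 (p = 0.0175) without the 4 rats. Itgb2, the common chain of leukocyte integrins, differed by log2 -0.53 (p = 0.00016, and -0.24, p = 0.0218). Gpnmb, a glycoprotein of lipid-laden phagocytes, differed by -0.62 (p = 0.000633, and -0.40, p = 0.0229), with 10 of 12 AV rats above every ADQ rat. Ncf1, a cytosolic subunit of the phagocyte NADPH oxidase, differed by -0.49 (p = 0.000584, and -0.40, p = 0.00448). Aif1, the classical microglial marker IBA1 and named after its value was seen, was not called (-0.17, p = 0.358).

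Of 26 complement genes 8 (30.8%) were lower and none higher (median log2 -0.28), and without the 4 AV rats 1 was lower and 1 higher. C4b, the component cleaved early in the classical pathway, was at 75.2 to 309 in AV (median 95.5) and 42.1 to 83.6 in ADQ (median 64.2), log2 -1.01 ± 0.22 (SE, p = 4.16e-05), adjusted p = 0.134. 10 of 11 ADQ rats lay below every AV rat, and without the 4 rats the difference was -0.52 (p = 0.00703). It was log2 -1.42 (p = 0.000418) in series a and -0.61 (p = 0.00666) in series b. Serping1, the C1 inhibitor, differed by -1.03 (p = 0.000775, and -0.47, p = 0.0607 without the 4 rats). C3, the central component, differed by -0.44 (p = 0.0187), and was not called without AV 3999 (p = 0.0558).

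Astrocyte genes had 6 of 24 lower and none higher (median log2 -0.15), and 4 without the 4 AV rats. Vim, vimentin, an intermediate filament of reactive astrocytes that endothelial cells also make, was at 425 to 1899 in AV (median 524) and 286 to 468 in ADQ (median 357), log2 -0.93 ± 0.20 (SE, p = 4.06e-05). 10 of 12 AV rats were above every ADQ rat, and the 4 rats were at 1182 to 1899. Without them Vim differed by -0.45 (p = 0.0084). Gfap, the filament that defines astrocytes, was at 17749 to 51346 in AV (median 29205) and 15463 to 24072 in ADQ (median 21044), log2 -0.57 ± 0.14 (SE, p = 0.000225), and differed by -0.40 (p = 0.00639) without the 4 rats. 10 of 12 AV rats were above every ADQ rat. Glul, glutamine synthetase, differed by -0.29 (p = 0.00334, and -0.22, p = 0.0359).

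Blood-brain barrier and endothelial genes were also lower in ADQ, 18 of 36 (50%), with a median log2 of -0.34. Without the 4 AV rats 2 were lower (median -0.12), with the red blood cell covariate 7, in series a 18 and in series b 7. Cldn5, the main claudin of brain endothelial tight junctions, was at 707 to 3276 in AV (median 1428) and 649 to 1172 in ADQ (median 953), log2 -0.61 ± 0.20 (SE, p = 0.00385), and -0.27 (p = 0.17) without the 4 rats. Egfl7, a protein of the vessel wall, differed by -0.56 (p = 0.000787, and -0.32, p = 0.0322), and Icam2, a leukocyte ligand on endothelium, by -0.66 (p = 0.000998, and -0.36, p = 0.0437). These latter are the 2 members still called. Nos3, the endothelial nitric oxide synthase, differed by -0.68 (p = 0.00169, and -0.30, p = 0.132).

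Among the AV and ADQ rats, the vascular genes Angpt2, Adm and Apold1, all with large falls, were highest in the 4 rats. Angpt2, the angiopoietin that loosens endothelial junctions, was at 307 to 1634 in them, 7.14 to 33.9 in the other AV rats and 8.15 to 42.2 (median 16.7) in ADQ. Its difference was log2 -1.71 ± 0.55 (SE, p = 0.00306), and -0.13 (p = 0.634) without the 4 rats. Adm, adrenomedullin, a vasodilator peptide induced by low oxygen, was at 72.4 to 383 in the 4 rats and 5.58 to 22.02 (median 13.1) in ADQ (log2 -1.43, p = 0.00247, and -0.36, p = 0.289 without them). Alox15, a lipoxygenase, was at 79.6 to 2663 in the 4 rats, the highest in AV 3989, and at 12.4 to 29.9 in ADQ. It differed by -1.63 (p = 0.00238, and -0.41, p = 0.176 without them), and by -0.83 (p = 0.0398) with the red blood cell covariate. Apold1, an early response gene of endothelium, was at 50.0 to 731 in AV (median 160.4) and 24.2 to 222 in ADQ (median 52.1), log2 -1.41 ± 0.40 (SE, p = 0.000893), and -0.70 (p = 0.0748) without them. Red blood cell markers included Slc4a1, the chloride exchanger of the red cell membrane (-1.35, p = 0.0443), a call lost without AV 3989, 3999, 4009, 4567, 4568 or 4572 or ADQ 3994, 4004, 4007, 4032 or 4110 (p = 0.0526 to 0.133).

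Pericyte and smooth muscle genes had 3 of 16 lower (18.8%, against 5.9% of all genes) and none without the 4 AV rats. Kcnj8 and Abcc9, the channel and sulfonylurea receptor of pericytes, differed by -0.82 (p = 0.00487) and -0.70 (p = 0.00577), and by -0.14 (p = 0.513) and -0.14 (p = 0.499) without them. Collagen and matrix genes had 6 lower and 2 higher of 47, and without the 4 rats none lower and 3 higher. Fn1, fibronectin, differed by -0.80 (p = 0.0123) and by 0.040 (p = 0.826) without the 4 rats. Choroid plexus markers, from a tissue beside the hippocampus, summed to 78.1 to 1439.6 in AV and 62.7 to 384 in ADQ.

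TGF-beta and BMP signaling had 10 of 48 genes lower (20.8%, against 5.9% of all genes) and none higher (median log2 -0.078), and 3 without the 4 AV rats. The ligand Tgfb1 was at 178 to 412 in AV (median 279) and 131 to 314 in ADQ (median 189), log2 -0.53 ± 0.17 (SE, p = 0.00389), and -0.32 (p = 0.0929) without them. The endothelial receptors Eng and Acvrl1 (ALK1) differed by -0.42 (p = 0.00967) and -0.50 (p = 0.0135), and by -0.20 (p = 0.191) and -0.098 (p = 0.547) without them. The target genes Id1 and Id3, which hold back differentiation factors, were still called: Id1 at -0.59 (p = 0.000943, and -0.38, p = 0.0251) and Id3 at -0.41 (p = 0.00389, and -0.35, p = 0.0284).

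Several immune and lipid genes outside these groups were lower with and without the 4 rats. Tnfaip8l2, a brake on immune cell activation, had the smallest p of all genes, at 82.7 to 194 in AV (median 118) and 59.7 to 112 in ADQ (median 73.1), log2 -0.60 ± 0.13 (SE, p = 3.79e-05), adjusted p = 0.134. 8 of 12 AV rats were above every ADQ rat and 6 of 11 ADQ rats below every AV rat, and without the 4 rats it differed by -0.52 (p = 0.000682). Acer2, a Golgi ceramidase that makes sphingosine, was at 231 to 2565 in AV (median 369) and 132 to 310.4 in ADQ (median 210.5), log2 -1.20 ± 0.27 (SE, p = 4.88e-05), and -0.69 (p = 0.0037) without them. 10 of 12 AV rats were above every ADQ rat. Tnfrsf1a, the receptor through which TNF signals in most cells, differed by -0.40 (p = 0.000166, and -0.28, p = 0.00971), and Nfkb2, the subunit of the alternative NF-kappaB pathway, by -0.50 (p = 0.000326, and -0.36, p = 0.0112). NF-kappaB and TNF signaling as a list had 8 of 43 lower and 1 higher (20.9% called, against 9.32% of all genes), and 3 and 1 without the 4 rats.

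**Figure D4:**
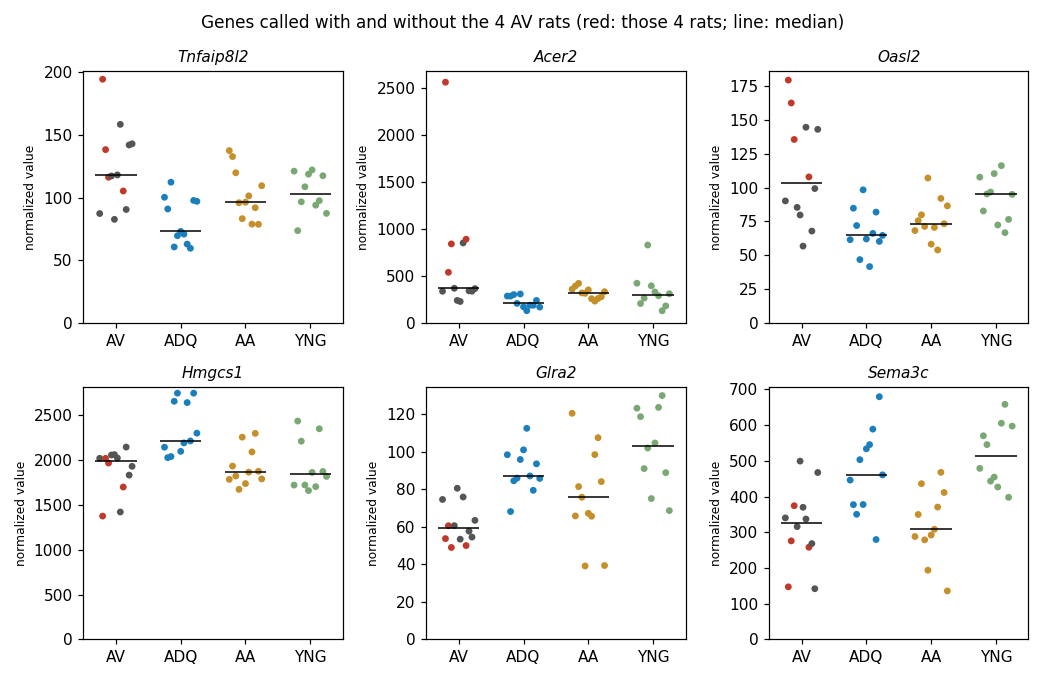
Normalized value (linear axis from 0) of 6 genes called with and without the 4 AV rats (red), 1 point per rat and the group median as a line. Tnfaip8l2, Acer2 and Oasl2 lie lower in ADQ (medians 73.1, 210.5 and 64.7) than in AV (118, 369 and 104), and Hmgcs1, Glra2 and Sema3c higher, with overlap in every panel.

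Dasatinib binds kinase proteins, and here the transcripts of its target kinases were measured. Of 42 listed 38 were tested, and 11 (28.9%, against 9.32%) were called, 7 lower and 4 higher (median log2 0.0063), and 2 and 2 without the 4 AV rats. The lower ones included Csf1r, given above, and Lck, a SRC family kinase of T cells named after its value was seen (-0.57, p = 0.0118). The SRC family members of most cells were not called, with Src at 0.043 (p = 0.642), Fyn at 0.024 (p = 0.643) and Yes1 at 0.031 (p = 0.853), nor was Abl1 at 0.37 (p = 0.344). Lyn, a SRC family kinase of B and myeloid cells, was called at -0.33 (p = 0.0485), but log2 -0.77 (p = 0.00123) in series a and 0.097 (p = 0.633) in series b were of opposite sign, and the call was lost without AV 3890, 3989, 3999, 4009, 4568 or 4571 or ADQ 3994, 4004, 4005, 4006, 4007, 4031, 4074, 4106 or 4110 (p = 0.0523 to 0.133). The neuronal ephrin receptors Epha4 and Epha5, which guide axons and shape spines, were higher (0.23, p = 0.0301 and 0.28, p = 0.0101), while Ephb2 was not called (0.13, p = 0.161). Kit, the stem cell factor receptor, rose by log2 0.17 (p = 0.0298), and Abl2 by 0.27 (p = 0.0373). The Epha4 call was lost without AV 3989 or 4571 or ADQ 4006 or 4106 (p = 0.0501 to 0.0806), the Kit call without AV 3989 or 4571 or ADQ 4007, 4032 or 4106 (p = 0.0506 to 0.0687), and the Abl2 call without AV 3890, 3989, 4567 or 4571 or ADQ 4006, 4007, 4032, 4074, 4106 or 4110 (p = 0.0501 to 0.119). Pdgfrb was not called (-0.12, p = 0.282).

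Of 15 BCL2 family members, whose balance sets the threshold of apoptosis, Bid was higher (0.27, p = 0.036) and Bak1 and Bmf lower (-0.27, p = 0.0251 and -0.35, p = 0.0443). All 3 favor cell death, and all 3 calls were lost when single rats were left out: Bid without AV 3890, 3999, 4010, 4566, 4567 or 4571 or ADQ 4004, 4005, 4007 or 4106 (p = 0.0502 to 0.0584), Bak1 without AV 4009 or ADQ 4006 (p = 0.0539 to 0.064) and Bmf without AV 3989, 3999, 4009, 4010, 4011, 4567 or 4571 or ADQ 3994, 4004, 4006, 4032, 4074 or 4105 (p = 0.0543 to 0.0974). The survival genes Bcl2 and Bcl2l1 (BCL-XL) were not called (-0.14, p = 0.47 and -0.13, p = 0.103). The leukocyte PI3K subunits Pik3r5 (-0.57, p = 0.00235) and Pik3cg (-0.38, p = 0.00313) were lower. Their differences without the 4 AV rats were -0.25 (p = 0.129) and -0.23 (p = 0.0741). Of 8 ephrin ligands Efna1 alone was called (-0.43, p = 0.01), and -0.32 (p = 0.073) without the 4 rats.

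Senescence and p53 target genes had 2 of 27 lower (7.41%, against a background of 9.32% in either direction) and none higher. Cdkn1a, the p21 inhibitor of cell cycle kinases, was at 47.1 to 207 in AV (median 78.7) and 33.3 to 88.9 in ADQ (median 76.8), log2 -0.51 ± 0.24 (SE, p = 0.0396). 5 of 12 AV rats were above every ADQ rat, yet the medians lay close together, and without the 4 AV rats the difference was -0.22 (p = 0.367). Its call was lost without AV 3989, 4009, 4568, 4571 or 4572 or ADQ 4004 or 4007 (p = 0.0591 to 0.0974), and by a permutation test of this gene (p = 0.0664). Fas, a death receptor and p53 target, differed by -0.61 (p = 0.0435), a call lost without AV 3989, 4009, 4010, 4011, 4569 or 4571 or ADQ 4006, 4031, 4032 or 4105 (p = 0.0526 to 0.118). Cdkn2a, which encodes p16, was too low to test. Of 30 secreted factors of senescent cells 8 (26.7%) were lower and none higher (median -0.26), and 4 without the 4 rats (median -0.047). Of the tested members 3 passed the filter on low values only through the 4 rats, 2 of them among those lower. Those with the smallest p were Ccl5, Tnfrsf1a and Angptl4, an inhibitor of lipoprotein lipase (-0.55, p = 0.000528, and -0.34, p = 0.0214 without the 4 rats).

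Myelin and oligodendrocyte genes had 8 of 24 lower (33.3%, against 5.9% of all genes) and all 24 below 0. Their median log2 was -0.28, and -0.26 without the 4 AV rats, with 4 lower. No member was called in either series alone or with the red blood cell covariate. Mbp, myelin basic protein, was at 32821 to 128720 in AV (median 54191) and 35885 to 54628 in ADQ (median 42036), log2 -0.49 ± 0.20 (SE, p = 0.0181), and -0.54 (p = 0.00979) without the 4 rats. Mag, an adhesion protein of the innermost myelin layer, differed by -0.38 (p = 0.0231) and was not called without AV 3989 or 4571 (p = 0.0536 to 0.0546). Sox10, the factor of the oligodendrocyte lineage, differed by -0.36 (p = 0.0155, and -0.37, p = 0.0181). Of 16 precursor genes 5 were lower, and 5 without the 4 rats, but 0 with the red blood cell covariate, 1 in series a and 2 lower with 1 higher in series b. Those called with all rats included Enpp6, which marks newly forming oligodendrocytes (-0.31, p = 0.0195, and -0.41, p = 0.00468) and Bcas1 (-0.54, p = 0.0176), not called without AV 3989 (p = 0.054). Summed oligodendrocyte markers ranged from 54564 to 175730 in AV and from 59873 to 77746 in ADQ, with 4 of 8 lower. Their part in these results was not tested.

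Of 55 genes of synaptic vesicle release 13 (23.6%, against 3.42% of all genes) were higher and none lower (median log2 0.14). Without the 4 AV rats 7 were higher (against 2.24%), with the red blood cell covariate 1, in series a none and in series b 9 (against 4.99%). Sh3gl2, endophilin, which helps retrieve vesicle membrane, was at 1055 to 3159 in AV (median 2251) and 2172 to 3694 in ADQ (median 2918), log2 0.39 ± 0.14 (SE, p = 0.00871). Nsf, the ATPase that recycles the fusion complex, rose by 0.20 (p = 0.00958), and Synj1, a lipid phosphatase that uncoats vesicles, by 0.21 (p = 0.011). Without the 4 rats Sh3gl2 was at 0.32 (p = 0.0314), Nsf at 0.16 (p = 0.046) and Synj1 at 0.20 (p = 0.0203). Markers of neighboring regions moved beside these genes: all 8 of CA3 and mossy cells lay above 0 (median log2 0.28, 2 called) and all 7 of CA1 below 0 (median -0.37, none called). Their part in the vesicle genes was not tested.

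Calcium channel and calcium handling genes had 6 of 40 higher and none lower (median 0.14), and 2 without the 4 AV rats. Cacna1c, the pore of an L-type channel, rose by 0.42 (p = 0.019), and Ryr2, the release channel of the endoplasmic reticulum, by 0.43 (p = 0.02). Both calls were lost without AV 3989 (p = 0.0583 and 0.0576). Metabotropic glutamate receptors and transporters had 2 of 18 higher and none lower (11.1% called, near the 9.32% of all genes), among them Grm7 (0.29, p = 0.0101), a presynaptic receptor. Of 28 ionotropic receptor genes 1 was higher and 1 lower (7.14% called, below the 9.32% of all genes). These were Neto1, an auxiliary subunit (0.50, p = 0.0281), and Cacng4, a trafficking protein of AMPA receptors (-0.21, p = 0.0351). The Neto1 call was lost without AV 3989 or 4571 or ADQ 4074 or 4106 (p = 0.0514 to 0.085), and the Cacng4 call without AV 3989, 3999, 4567 or 4572 or ADQ 4006, 4007, 4032, 4074 or 4105 (p = 0.0507 to 0.0712). The NMDA receptor genes Grin1, Grin2a and Grin2b were not called, with Grin1 at 0.10 (p = 0.249), Grin2a at 0.23 (p = 0.177) and Grin2b at -0.0025 (p = 0.985). Their 95% intervals ran from -0.075 to 0.28, from -0.11 to 0.56 and from -0.27 to 0.27. None of 23 GABA genes was called, and 2 of 45 potassium channels (4.44%, near the 3.42% of all genes) were higher, Kcnt2 (0.39, p = 0.0121, and 0.33, p = 0.062) and Kcnq5 (0.35, p = 0.0186, and 0.34, p = 0.0273).

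The gene with the smallest p among the rises was Hmgcs1, the enzyme that makes the HMG-CoA used for cholesterol. It was at 1374 to 2144 in AV (median 1992) and 2026 to 2744 in ADQ (median 2212), log2 0.32 ± 0.080 (SE, p = 0.000187), and 0.28 (p = 0.00225) without the 4 AV rats. 9 of 12 AV rats were below every ADQ rat. Of 26 cholesterol genes 2 were higher and 1 lower (11.5% called, near the 9.32% of all genes). Srebf2, the factor that turns the pathway on, was the other rise (0.25, p = 0.0258), lost without AV 3989 or 4567 or ADQ 4004 or 4032 (p = 0.0513 to 0.0678). Srebf1, which favors fatty acid genes, was the fall (-0.28, p = 0.00247). No member was called lower without the 4 AV rats or in series b alone, so the Srebf1 call was lost in both. Glra2, a glycine receptor subunit of immature neurons, was at 49.1 to 80.6 in AV (median 59.2) and 68.2 to 113 in ADQ (median 87.2), log2 0.56 ± 0.14 (SE, p = 0.000272), and 0.47 (p = 0.00552) without the 4 rats. 9 of 11 ADQ rats were above every AV rat. Sema3c, a secreted guidance protein, was at 142 to 499 in AV (median 326) and 279.6 to 679 in ADQ (median 461), log2 0.61 ± 0.18 (SE, p = 0.00148), and 0.49 (p = 0.0155) without them. Dcaf6, a substrate receptor of an E3 ligase, rose by 0.25 (p = 0.00174) and Xpot, which exports tRNA from the nucleus, by 0.23 (p = 0.00144).

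Among called genes with a mean of at least 20 and a symbol that is not a clone name (AABR, LOC or RGD), Bhlhe23 had the largest rise. Bhlhe23, a basic helix-loop-helix factor, was at 0 to 87.3 in AV (median 38.2) and 31.2 to 125 in ADQ (median 52.98), log2 1.24 ± 0.58 (SE, p = 0.039), a call lost without AV 3890, 3989, 3999 or 4571 or ADQ 3994, 4004, 4074 or 4106 (p = 0.051 to 0.121). Fermt1, a kindlin that activates integrins, rose by 0.83 (p = 0.0253), lost without AV 3890, 3989 or 4572 or ADQ 4005 (p = 0.0507 to 0.0673). Enox2 (0.76, p = 0.0178) and Itgbl1 (0.73, p = 0.0216) were not called without AV 4571 (p = 0.0525 and 0.0639). Stra6, a receptor for the vitamin A carrier, rose by 0.64 (p = 0.0123), but was not called without the 4 AV rats (0.38, p = 0.132). Pkib, an inhibitor of protein kinase A, rose by 0.61 (p = 0.00881, and 0.50, p = 0.0389), and Mgat4c, a glycosyltransferase, by 0.60 (p = 0.0122, and 0.60, p = 0.0268). Of 26 genes of adult neurogenesis 2 were called (7.69%, below the 9.32% of all genes). Dcx, the microtubule protein of newborn neurons, was higher (0.27, p = 0.0152) and Mcm2, of dividing cells, lower (-0.42, p = 0.00452). Neither was called without the 4 AV rats (0.24, p = 0.0508, and -0.18, p = 0.179). Mki67, named after its value was seen, gave 0.016 (p = 0.931).

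Immediate early genes, which neurons and vessels switch on within minutes of a stimulus, had 6 of 37 lower and 1 higher. That is 18.9% called, against 9.32% of all genes, and without the 4 AV rats 4 were lower and 2 higher. Klf4 was at 34.7 to 201 in AV (median 115) and 44.5 to 118 in ADQ (median 61.5), log2 -0.74 ± 0.20 (SE, p = 0.000547), and -0.66 (p = 0.00493) without them. Atf3, a stress-induced factor, differed by -1.09 (p = 0.000936, and -0.90, p = 0.0128), and Maff by -1.11 (p = 0.00331, and -0.43, p = 0.195). Clock genes had 3 of 22 lower (13.6%, against 5.9% of all genes), and 3 without the 4 rats. Those called with all rats were Dbp (-0.31, p = 0.0109), Bhlhe41 (-0.24, p = 0.0218) and Nr1d1 (-0.23, p = 0.0279), all outputs or repressors of the daily clock. Their differences were log2 0.00052, -0.077 and -0.069 in series a and -0.59, -0.40 and -0.37 in series b. The Nr1d1 call was lost without AV 4009 or 4567 or ADQ 4006 or 4074 (p = 0.0507 to 0.0648). Glucocorticoid receptors and targets had 4 of 20 lower and none without the 4 rats. Mt1 and Mt2A, metal-binding proteins, differed by -0.75 (p = 0.00187) and -0.78 (p = 0.000921), and Dusp1, a phosphatase of stress kinases, by -0.47 (p = 0.0319), lost without AV 3989, 4009 or 4010 or ADQ 4074, 4106 or 4110 (p = 0.0542 to 0.0799).

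Heat shock and chaperone genes had 5 of 37 higher and 2 lower (18.9% called, against 9.32% of all genes), and 2 and 2 without the 4 AV rats. Dnaja1, a co-chaperone of HSP70, rose by 0.23 (p = 0.00559) and Hspa4 by 0.17 (p = 0.0205), with Hsph1 (0.20, p = 0.0228) not called without AV 4009 (p = 0.062). Lysosome and autophagy genes had 8 of 41 lower (19.5%, against 5.9% of all genes), 3 without the 4 AV rats, and 1 lower with 1 higher with the red blood cell covariate. Tfeb, the factor that drives lysosome genes, differed by -0.30 (p = 0.00603, and -0.35, p = 0.00459). NRF2 and antioxidant genes had 6 lower and 1 higher of 43 (16.3% called, against 9.32%), 1 lower and none higher without the 4 rats, and 2 lower with the red blood cell covariate. Those called with all rats included Hmox1, heme oxygenase (-0.35, p = 0.0134, and -0.14, p = 0.295). No gene was called among 76 of the respiratory chain and ATP synthase (median log2 -0.049), 79 of cytosolic ribosomal proteins (median -0.23) and 39 of the proteasome (median 0.0012). In series b alone 16 ribosomal genes (median -0.47) and 6 respiratory genes (median -0.24) were lower, against medians of 0.0081 and 0.12 in series a, and the difference between the series was not tested for these lists.

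**Figure D5:**
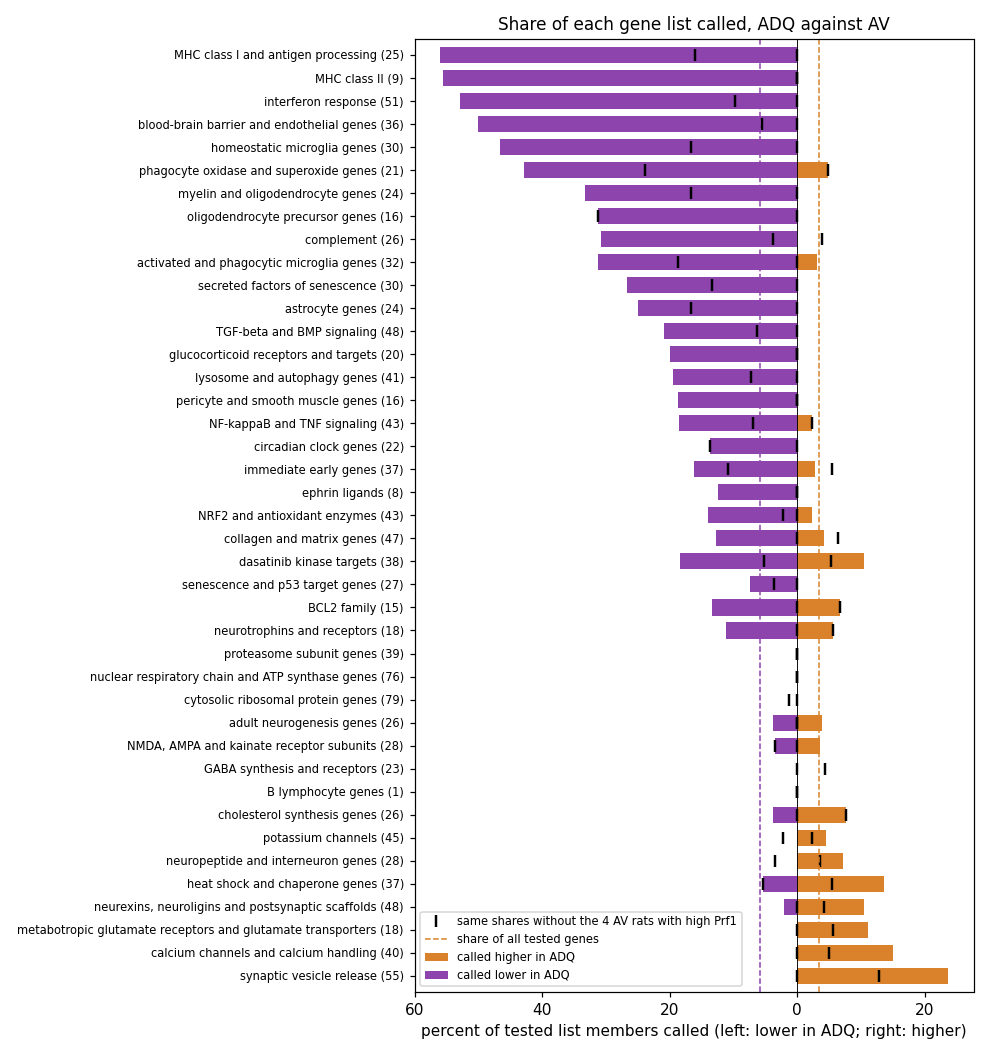
Percent of the tested members of each gene list shown that were called lower (purple, to the left) or higher (orange, to the right) in ADQ, with the number tested in brackets, the shares without the 4 AV rats as black ticks and the shares over all genes tested (5.9% lower, 3.42% higher) as dashed lines. The cytotoxic list is not drawn. The 3 longest bars, MHC class I (56.0%), MHC class II (55.6%) and interferon genes (52.9%), are all shorter without the 4 rats, and vesicle release (23.6%) extends farthest to the right.

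ADQ and AA, both senolytic groups, differed in 707 genes (4.53% of those tested), 375 higher (2.4%) and 332 lower (2.13%) in ADQ, with no gene at an adjusted limma p of 0.05 (smallest 0.981). Chance alone gives about 780 at this threshold. Among the named genes, ADQ was lower than AA in, for example, Tfeb (log2 -0.43, p = 0.000205), Dusp1 (-0.79, p = 0.000721), Apold1 (-1.20, p = 0.00461) and Tnfaip8l2 (-0.34, p = 0.0155), and higher in Hmgcs1 (0.29, p = 0.001), Sema3c (0.57, p = 0.00316) and Epha5 (0.34, p = 0.00298). Most named genes were picked by their difference between ADQ and AV. The same ADQ rats enter here, so these p-values lean toward passing. Of the interferon list 1 gene was lower and 1 higher in ADQ than in AA. Immediate early genes had 9 of 37 lower and 1 higher, clock genes 5 of 22 lower, glucocorticoid receptors and targets 4 of 20 lower and 1 higher, the BCL2 family 3 of 15 lower, and vesicle release 5 of 55 higher and 1 lower, lists named for their counts. Prf1, Ccl5 and C4b did not pass between the treated groups, with Prf1 at -0.023 (p = 0.975), Ccl5 at -0.81 (p = 0.273) and C4b at -0.21 (p = 0.359).

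The AV rats enter the comparison with YNG as well, so the values are set side by side without a test of the resemblance. C4b was at 14.9 to 53.2 (median 29.6) in YNG, 75.2 to 309 (median 95.5) in AV, 42.1 to 83.6 (median 64.2) in ADQ and 44.03 to 102 (median 69.4) in AA. Vim was at 227 to 649.6 (median 402) in YNG, 425 to 1899 (median 524) in AV, 286 to 468 (median 357) in ADQ and 289.5 to 807 (median 388) in AA. Oasl2 was at 66.7 to 116 (median 95.1), 56.8 to 179 (median 104), 41.7 to 98.3 (median 64.7) and 54.0 to 107 (median 73.3) in the same order. The ADQ and YNG values overlapped for all 3 genes. Hmgcs1, higher in ADQ than in AV, was at 1659 to 2434 (median 1839) in YNG, and Glra2 at 68.7 to 130.1 (median 103).

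Within the series, 885 genes (5.67%) were called in series a, 285 higher and 600 lower, and 1519 (9.74%) in series b, 778 higher and 741 lower. Those called lower in both were 106, which is 17.7% of the lower calls of series a and 14.3% of those of series b, against a background of 4.75% and 3.85%. Those called higher in both were 8, or 2.81% of series a and 1.03% of series b, against 4.99% and 1.83%. Tnfaip8l2, Vim and Hmgcs1 had the same direction in both: Tnfaip8l2 was -0.47 (p = 0.0303) in series a and -0.71 (p = 0.000192) in series b, Vim -1.15 (p = 0.000653) and -0.70 (p = 0.00972), and Hmgcs1 0.28 (p = 0.0328) and 0.37 (p = 0.00254). These genes were picked for a small p in the fit of both series, so a shared direction was nearly set in advance. Of all 1454 called genes 1443 had the same sign in both series. A test of the difference between the series gave 628 genes at an unadjusted p of 0.05 (4.03%) and none at an adjusted p of 0.05.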

How the data were processed

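RNA of the DG was sequenced in 44 rats. Per the methods and the submitters' processing notes, the authors aligned reads to rn6 with STAR 2.5.3a within Partek Flow, applied median ratio scaling and used DESeq2 for testing. The deposited table holds signal: the estimated reads of a row over the library's size factor. Of low values 78.0% to 83.0% per rat were whole multiples of 1 read's step, so no count model was used. Sample labels give age alone, and groups came from the authors' attributes table by rat name. The sequencer is named differently in labels and methods. The 24694 rows were summed to 18347 gene identifiers, and the 15598 with a mean of at least 5 were tested as log2(value + 1). limma 3.58.1 in R 4.3.3 fitted all 4 groups with a trended spread, two-sided, and Benjamini-Hochberg adjustment covered all genes tested. Single genes were also tested by permutation (100000 resamples). The level of a gene is per gene, not per length, so levels were not compared between genes. On simulated data, where 200 of 15598 genes changed by log2 1, 95.5% were called and 4.96% of unchanged genes. Whether these percentages hold for the sequenced rats, where 4 AV rats stood apart, was not tested. Python 3.11.15 and pandas 2.3.3 made the tables.

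Named genes were the 8 largest rises and falls with a mean of at least 20 (clone names AABR, LOC and RGD left out), the 5 smallest p in each direction, the 3 smallest p of each list and a fixed set of drug targets and receptors, 134 in all. The rule, the 43 function lists, the 15 marker lists and the comparison itself were chosen with earlier results of these data known. 16 alternatives were planned and 2 added after seeing the data. Sequences are from RefSeq. A few genes and 1 list are not reported here.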

Additional observations from a re-analysis of the deposited data

Results flagged for a closer look

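Of the 134 named genes, 5 differed between the number series at an unadjusted limma p of 0.05 for the difference of the ADQ minus AV effects, against 4.03% of all genes tested, and the adjusted p was 0.961 for each. Lyn differed between the series by log2 0.87 (p = 0.00547), at -0.77 in series a and 0.10 in series b. Dbp differed by -0.59 (p = 0.0112), at 0.00052 and -0.59. RT1-CE5 differed by 0.80 (p = 0.0122), at -1.08 and -0.28. Dusp1 differed by -0.97 (p = 0.0177), at 0.06 and -0.92. Pik3cg differed by 0.48 (p = 0.0359), at -0.62 and -0.14. Since AV and ADQ numbers do not mix in series b, number and treatment cannot be told apart there.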

How the results depend on the processing

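Against 1454 calls (533 higher, 921 lower), series a alone gave 885 (285 and 600), leaving out the 4 AV rats 755 (349 and 406) and the red blood cell covariate 688 (290 and 398), the last 2 chosen after seeing the data. Fewer rats enter the first 2. Array weights gave 1939 calls, 878 of them higher, and 25 genes at an adjusted p of 0.05. Leaving out 1 rat gave 1075 calls (without AV 3989) to 1733 (without AV 4011, with 17 at an adjusted p of 0.05), 386 (AV 4571) to 686 (AV 4011) higher and 645 (AV 3989) to 1047 (AV 4011) lower. No paired analysis was possible because each rat has its own number and the groups share none. Of the 123 called named genes, 89 kept p under 0.05 in all 23 fits that left out 1 rat, and the others are named beside their values or are Cspg4, Igf1r, Ret, Cntfr, Crh and Ptprf.

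Of the 134 named genes, 55 lost their call with the direction kept without the 4 AV rats, 53 with the red blood cell covariate, 59 in each series alone, 17 with the choroid plexus covariate and 13 with the CA1 covariate. Ret and Fn1 without the 4 rats, Dbp and Dusp1 in series a and Lyn in series b also lost theirs, with the direction turned. Scaling by the total ended 9 calls (Bmf, Cdkn1a, Fas, Cspg4, Ptprf, Ret, Cntfr, Bhlhe41 and Lyn) and a permutation test of the single gene 8 (Slc4a1, Cdkn1a, Fas, Ret, Dusp1, Fn1, Lyn and Abl2). Pdgfrb became called with array weights (log2 -0.22, p = 0.024) and Grin2a in series b (0.38, p = 0.0227). The choice of pseudocount, filter, upper quartile scaling and row summing ended at most 5 calls each, the log2 total as a covariate 6 and array weights 12.

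Direction turned in the following named genes, for which the cause was not tested. Without the 4 AV rats Ret was at log2 0.029, Fn1 at 0.040 and Pdgfrb at 0.044. In series a Dbp was at 0.00052, Dusp1 at 0.057, Src at -0.0097 and Yes1 at -0.10. In series b Lyn was at 0.10, Bcl2 at 0.16, Grin1 at -0.0087 and Grin2b at 0.11. With the red blood cell covariate Yes1 was at -0.073, Abl1 at -0.017 and Grin2b at 0.14. With the log2 total as a covariate Yes1 was at -0.014 and Grin2b at 0.048, with array weights Ephb2 at -0.0039 and Grin2b at 0.12, with the CA1 covariate Src at -0.0086, and with scaling by the total Grin2b at 0.035. Leaving out 1 rat gave ranges that cross 0, -0.0037 to 0.079 for Src, -0.031 to 0.12 for Yes1 and -0.051 to 0.058 for Grin2b. Scaling by the total moved the median of all genes to 0.046. The depth limits genes with a mean near 5, which rest on few reads per rat.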

Other observations

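Other groups held fewer calls. Of 48 neurexins, neuroligins and postsynaptic scaffolds 5 were higher and 1 lower (12.5% called, against 9.32% of all genes), and 2 were higher without the 4 AV rats. Ptprs, a presynaptic adhesion phosphatase, rose by log2 0.28 (p = 0.0151, and 0.29, p = 0.023 without the 4 rats), and Dlg3, a postsynaptic scaffold, by 0.17 (p = 0.0188, and 0.14, p = 0.0701). Of 18 neurotrophins and receptors 1 was higher, Igf1r (0.31, p = 0.0374), and 2 lower, Ret (-0.37, p = 0.043) and Cntfr (-0.19, p = 0.0485), all of which lost the call when single rats were left out: Igf1r without AV 3989, 4567 or 4571 or ADQ 4007, 4031, 4032 or 4074 (p = 0.0511 to 0.0957), Ret without AV 3989, 3999, 4009 or 4568 or ADQ 4004, 4005, 4006, 4007 or 4105 (p = 0.053 to 0.113) and Cntfr without AV 3890, 3989, 4009, 4010, 4011, 4567 or 4571 or ADQ 3994, 4006, 4007, 4031, 4032, 4074 or 4110 (p = 0.0599 to 0.111). Of 28 neuropeptide and interneuron genes 2 were higher and none lower (7.14% called, below the 9.32% of all genes). They were Chgb, a granin of secretory vesicles (0.35, p = 0.00799, and 0.30, p = 0.0449), and Crh, the stress peptide (0.37, p = 0.0457). The Crh call was lost without AV 3989, 3999, 4009, 4010, 4011, 4566, 4567, 4568 or 4572 or ADQ 3994, 4004, 4006, 4031 or 4105 (p = 0.0507 to 0.0998). Nid2, a basement membrane protein, was lower (-0.81, p = 0.00904, and -0.099, p = 0.675 without the 4 rats), as was Rac2, the leukocyte form of RAC (-0.91, p = 0.000828, and -0.32, p = 0.131). The 1 B lymphocyte gene tested was not called.

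Among marker lists not given above, 1 of 4 ependymal genes, 1 of 7 astrocyte genes and 2 of 6 pericyte genes were lower, 2 of 8 genes of CA3 and mossy cells were higher, and none of 9 meningeal and 3 macrophage genes was called. The summed pericyte level was 1544 to 1929 in the 4 AV rats, 816 to 1278 in the other AV rats and 829.9 to 1158 in ADQ. The granule cell sum was lowest of the AV rats in AV 3989, at 6678, the rat that also held the highest CA1, oligodendrocyte, astrocyte and red blood cell sums of its group.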
